A study of Mus musculus with 12 samples.

Results

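Serum amyloid A genes encode small secreted apolipoproteins of the acute phase response. The members were the rows of the deposited count table whose symbol is Saa1, Saa2, Saa3 or Saa4, which gave 4 genes of 25611, and all 4 passed the filter on low counts. The 4 genes were followed in whole livers of 12 male C57BL/6J mice aged 8 to 10 weeks, with 4 mice in each of 3 groups, all collected 30 hr post-surgery. Sham mice had an abdominal incision alone. CLP mice underwent cecal ligation and puncture, a model in which gut bacteria leak into the abdomen and cause polymicrobial sepsis. CLP+DCA mice underwent the same surgery and received dichloroacetate (DCA), an inhibitor of pyruvate dehydrogenase kinase, intraperitoneally at 25 mg/kg at 24 hr, so that livers were taken 6 hr after the injection. The sources used here do not say whether sham and CLP mice received a vehicle. Each library is 1 mouse, with a depth of 24436513 to 44266819 counted reads. In whole liver, a change in the number of cells of a type and a change in the RNA per cell cannot be told apart.

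Hepatocytes are the main source of circulating serum amyloid A, which displaces other apolipoproteins from high-density lipoprotein (HDL) during inflammation. IL-1, IL-6 and TNF induce the genes through NF-kB, STAT3 and C/EBP transcription factors, and persistent production can end in AA amyloidosis. In the mouse, Saa1 and Saa2 encode the acute phase proteins of the liver, Saa3 is induced in the liver and in macrophages, adipocytes and epithelia, and Saa4 encodes the constitutive HDL apolipoprotein.

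The 4 genes lay side by side on chromosome 7 (mm10), in a span of 42317 bases from 46711998 to 46754314. In order along the chromosome these were Saa3 (NCBI Gene 20210) at chr7:46711998-46715676, Saa4 (20211) at chr7:46727992-46732603, Saa1 (20208) at chr7:46740497-46742980 and Saa2 (20209) at chr7:46751833-46754314. Saa2 was on the plus strand and the others on the minus strand, and 7893 to 12315 bases separated neighbouring members. Each had 4 exons in the GENCODE transcript taken for it. The coding sequences of Saa1, Saa2 and Saa3 were 369 bases long with the stop codon, for 122 residues, and that of Saa4 was 393 bases, for 130 residues. The transcript of Saa4 was the longest at 2094 bases, against 609, 606 and 555 bases for Saa1, Saa2 and Saa3.

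Saa1 and Saa2 are near copies, and this bears on how far reads could be assigned between them. Their coding sequences were identical at 95.1% of 369 positions, whereas the other pairs were identical at 61.6% to 74.5% of aligned positions. The stretch from base 91 to base 150 of the coding sequence (GENCODE, GRCm38) held 7 of their 18 coding differences, given in capitals:

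Saa1: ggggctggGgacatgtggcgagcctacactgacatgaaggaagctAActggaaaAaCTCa
Saa2: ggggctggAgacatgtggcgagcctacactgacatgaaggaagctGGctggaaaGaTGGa

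No window of 100 bases, the length of a read end, was shared exactly between the spliced transcripts of any of the members. Windows of 100 bases in the aligned Saa1 and Saa2 transcripts differed by 1 to 12 bases. The settings used for reads that fit both genes are not given in the sources used here, so the split between Saa1 and Saa2 is less certain than their sum. NCBI also lists each of the symbols Saa1 and Saa2 as a synonym of the other, and the gene identifiers above fix which is meant.

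The sequences before the start sites are given as a description of the genes. In level, Saa1 and Saa2 moved together, while Saa3 and Saa4 each had a pattern of their own. Whether the upstream sequences bear on these patterns was not tested. The part of the read split between Saa1 and Saa2 in their shared pattern was not tested either. The runs below hold bases 250 to 31 before each start (RefSeq, GRCm38.p6), 5′ to 3′ on the strand of the gene, and capitals mark matches to TTGCNNAA, a C/EBP motif, on either strand. They lie at chr7:46743011-46743230 for Saa1, chr7:46751583-46751802 for Saa2, chr7:46715707-46715926 for Saa3 and chr7:46732634-46732853 for Saa4:

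Saa1: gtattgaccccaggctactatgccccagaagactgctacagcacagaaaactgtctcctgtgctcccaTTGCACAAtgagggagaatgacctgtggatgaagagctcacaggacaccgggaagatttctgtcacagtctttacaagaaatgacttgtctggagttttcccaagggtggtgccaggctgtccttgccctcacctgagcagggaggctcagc
Saa2: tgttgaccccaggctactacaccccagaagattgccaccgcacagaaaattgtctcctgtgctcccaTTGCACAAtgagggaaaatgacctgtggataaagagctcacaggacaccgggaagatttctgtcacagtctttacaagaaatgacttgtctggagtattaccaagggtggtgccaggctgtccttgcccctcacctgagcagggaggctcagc
Saa3: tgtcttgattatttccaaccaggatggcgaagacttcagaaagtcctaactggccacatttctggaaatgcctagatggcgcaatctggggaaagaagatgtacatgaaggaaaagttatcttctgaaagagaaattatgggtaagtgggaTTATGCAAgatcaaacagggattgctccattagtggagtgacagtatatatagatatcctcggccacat
Saa4: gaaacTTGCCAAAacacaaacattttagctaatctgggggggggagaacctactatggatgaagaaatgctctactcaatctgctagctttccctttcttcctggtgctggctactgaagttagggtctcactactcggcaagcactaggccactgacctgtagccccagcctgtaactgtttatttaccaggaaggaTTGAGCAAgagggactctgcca

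Identity and motifs were taken over all 250 bases before each start, of which the runs above show bases 250 to 31. Over these 250 bases Saa1 and Saa2 were identical at 94.8% of aligned positions, and the other pairs at 39.7% to 47.1%. The same TTGCACAA stood 182 bases before the start of Saa1 and 183 bases before that of Saa2. Saa3 held 1 match, on the other strand, 99 bases before its start, and Saa4 held 2, at 245 bases and, on the other strand, at 52 bases. Of 32851 mouse promoter windows of the same length, 9.56% held this motif. None of the 4 windows held the NF-kB motif searched (in 1.41% of windows), TTCNNNGAA (a STAT motif, in 7.02%) or TATAAA (in 12.4%) on either strand, which says only that these letters are not in the windows. A match is a string of letters and was not tested as a binding site.

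Several libraries differed from the others of their group in ways that touch the results. The library labelled CLP+DCA replicate 3 had the highest Saa1, Saa2 and Saa3 and the lowest Saa4 of its group, and each fold change and ratio of CLP+DCA that it moves by over 1.5 times is also given without it. Its Saa1, Saa2 and Saa3 levels lay inside the CLP range, and whether this mouse was labelled or treated otherwise than the rest of its group cannot be told from the sources used here, a doubt that bears on every CLP+DCA value below. In CLP, replicates 2 and 4 were the shallowest libraries (24436513 and 25683615 reads) and replicates 1 and 3 were deeper (44266819 and 39686029 reads). The part of depth in the differences among CLP mice was not tested. Of the hepatocyte markers, albumin (Alb) stood at 46672 ± 8571 CPM (SD, n = 4) in sham, and of the 9 measured only Ass1 was near 0, at 0.689 CPM in sham. As the family rose, Alb fell by 1.11 on the log2 scale in CLP versus sham (edgeR adjusted p = 0.0463). The 9 markers had a median of -0.60 with 1 called lower. Not all fell: 2 of the 9 were above 0, Apob at 0.26 and Hnf4a at 0.05, and Asgr1 was at -0.17. The summed level of the 9 markers, most of it Alb in sham, was 63346 to 81521 CPM in sham and 30985 to 45569 in CLP. In CLP+DCA it was 51663, 48495, 28313 and 57498 CPM. The part of these marker changes in the results was not tested. Over all genes tested in CLP versus sham, 2.78% were called. CPM are read counts scaled to a common library size, here adjusted by the trimmed mean of M-values (TMM).

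Together, the 4 genes took a few percent of all liver reads, and a larger share after CLP. In sham mice the share was 1.49% ± 0.07 (SD, n = 4), with a range of 1.41% to 1.58%. In CLP mice it was 3.47%, 6.77%, 3.598% and 6.18% in replicates 1 to 4, with a mean of 5.004% ± 1.71. In CLP+DCA mice it was 2.26%, 3.15%, 5.76% and 1.84%, with a mean of 3.25% ± 1.76. Every septic mouse lay above every sham mouse, and the CLP and CLP+DCA groups overlapped through CLP+DCA replicate 3. The 95% Wilson interval of each share was at most 0.00996 percentage points to either side, so counting error was small beside the spread. The interval covers counting error only. With 1 library per mouse, differences between mice and between library preparations cannot be told apart.

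**Figure D1:**
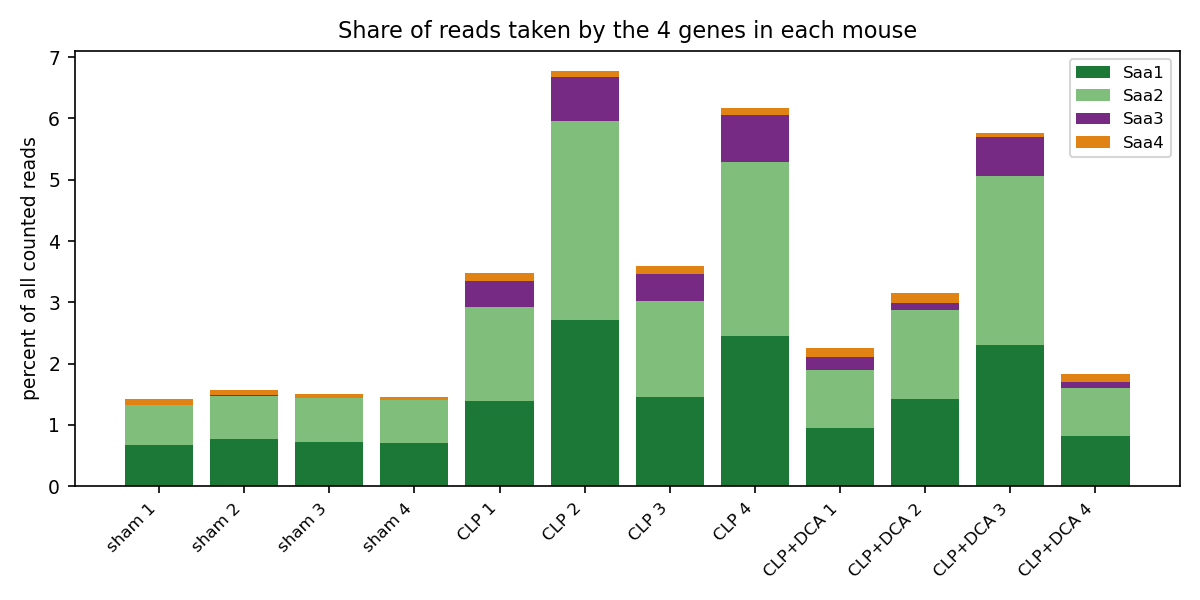
Reads on the 4 serum amyloid A genes in each mouse as a percent of all counted reads, with 1 stacked bar per mouse and colours for the genes. Saa3 is almost invisible in the sham bars and forms 10.5% to 12.6% of the family's reads in CLP, and the bar of CLP+DCA replicate 3, at 5.76%, stands above those of the other CLP+DCA mice.

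The make-up of these reads also differed. Saa1 and Saa2 held most of the family's reads in every mouse, and Saa3 went from 0.0878% to 0.146% of them in sham to 10.5% to 12.6% in CLP. In CLP+DCA replicates 1 to 4, Saa3 held 9.76%, 3.92%, 11.1% and 5.48% of the family's reads. Saa4 held 3.52% to 6.56% in sham and 1.33% to 3.65% in CLP, and in CLP+DCA it held 0.994% in replicate 3 and 4.95% to 7.24% in the others.

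Saa1 encodes 1 of the 2 main acute phase isoforms in plasma and was already abundant in sham liver. Sham mice had 6376, 7134, 6688 and 6906 CPM in replicates 1 to 4, CLP mice 14175, 31637, 13969 and 28301 CPM, and CLP+DCA mice 8759, 13920, 25095 and 7956 CPM. All septic mice were above the sham range, the sham mice were tightly grouped, with a coefficient of variation of 4.77%, and 3 of the 4 CLP+DCA mice were below every CLP mouse. Means of the sham, CLP and CLP+DCA groups were 6776 ± 323, 22020 ± 9279 and 13932 ± 7897 CPM (SD, n = 4 each). The raw Saa1 counts of the 4 CLP mice, 577711 to 660840, were close to each other although the depth of these libraries was not.

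Saa2, the other main acute phase isoform, was close to Saa1 in level and pattern. Its levels were 6114, 6682, 6801 and 6749 CPM in sham, 15694, 38133, 14954 and 32615 CPM in CLP, and 8667, 14087, 30094 and 7606 CPM in CLP+DCA. The same mice were high as for Saa1, and the septic and sham mice did not overlap. Group means were 6586 ± 319, 25349 ± 11797 and 15114 ± 10383 CPM. For the sum of Saa1 and Saa2, which does not depend on how reads were split between them, the 3 group means were 13363 ± 597, 47370 ± 21070 and 29046 ± 18270 CPM.

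Saa3, which macrophages and other cells outside the liver can also make, was low in sham and high in all septic mice. Sham libraries held 525, 564, 390 and 535 Saa3 reads, for 19.5, 14.0, 12.3 and 14.6 CPM. CLP mice had 4300, 8344, 4346 and 9008 CPM, which was 284 to 596 times the sham mean. CLP+DCA mice had 2029, 1204, 6983 and 976 CPM, or 134, 79.6, 462 and 64.6 times the sham mean. Replicate 3 was thus inside the CLP range, and the other 3 CLP+DCA mice were below the lowest CLP mouse and far above all sham mice. Group means were 15.1 ± 3.09, 6499 ± 2528 and 2798 ± 2826 CPM.

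By the means of all mice in each group Saa4, the constitutive member, moved least, and it was high in other mice. It had 878, 903, 565 and 498 CPM in sham, 1254, 1050, 1260 and 1312 CPM in CLP, and 1345, 1522, 624 and 1292 CPM in CLP+DCA. All CLP mice were above all sham mice. In CLP+DCA, replicate 3, the mouse with the highest Saa1, Saa2 and Saa3 of its group, was inside the sham range for Saa4, while the other 3 mice were near or above the CLP mice. Group means were 711 ± 209, 1219 ± 115 and 1196 ± 394 CPM.

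**Figure D2:**
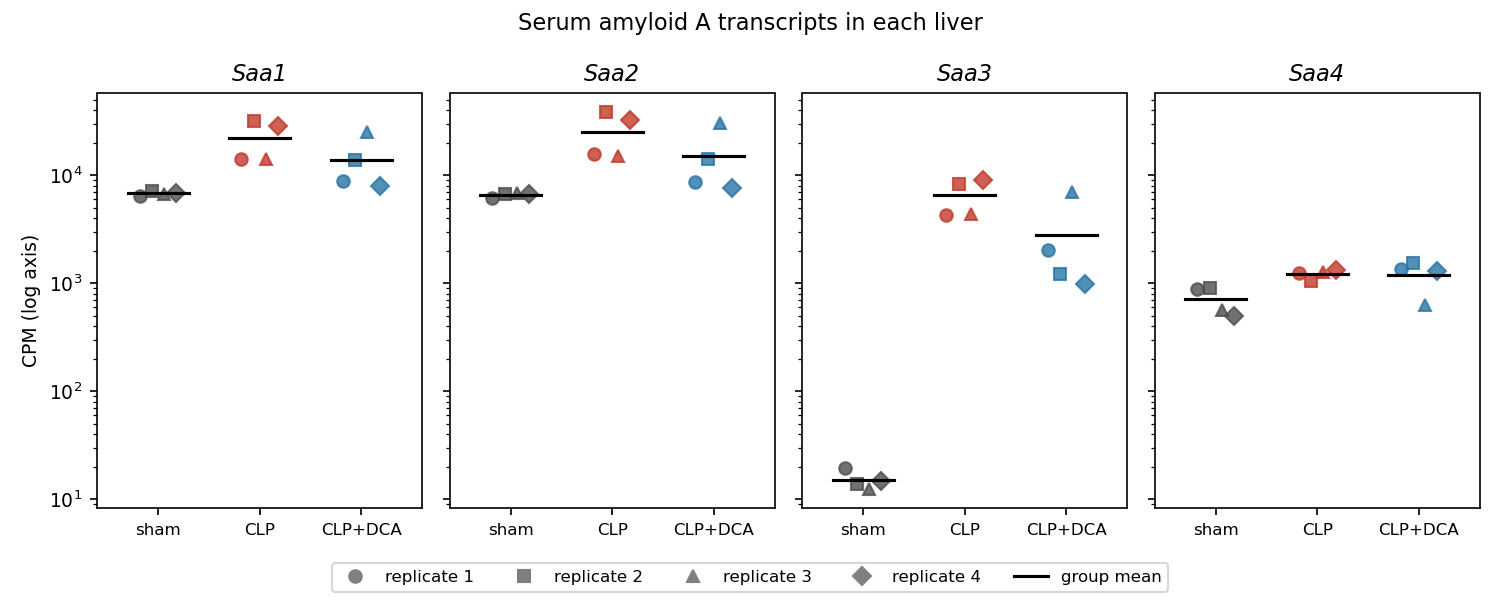
Levels of Saa1, Saa2, Saa3 and Saa4 in CPM on a log axis, with 1 point per mouse, a symbol for each replicate number and a line at each group mean. Saa3 lies between 12.3 and 19.5 CPM in sham and between 4300 and 9008 CPM in CLP, and CLP+DCA replicate 3 (triangle) is the highest of its group in the first 3 panels and the lowest in the Saa4 panel.

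To compare levels between genes, CPM were divided by transcript length in kb. In sham, Saa1 stood at 11127 ± 530 CPM per kb, Saa2 at 10868 ± 526, Saa4 at 340 ± 99.9 and Saa3 at 27.2 ± 5.57 (SD, n = 4). The order in CLP was Saa2 at 41830 ± 19466, Saa1 at 36158 ± 15236, Saa3 at 11711 ± 4554 and Saa4 at 582 ± 55.1 CPM per kb. In CLP+DCA it was Saa2 at 24940 ± 17133, Saa1 at 22877 ± 12967, Saa3 at 5042 ± 5092 and Saa4 at 571 ± 188 CPM per kb. Saa3 and Saa4 thus changed places between sham and the septic groups, with no overlap between them in any group, and Saa1 and Saa2 differed by less than their spread in each group.

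CLP versus sham asks which members changed in sepsis. In this comparison 3 of the 4 members were called, all higher in CLP, against 2.78% of the 13190 genes tested (1.64% called higher). The test was edgeR's quasi-likelihood test with Benjamini-Hochberg adjustment over all genes at a false discovery rate (FDR) of 0.05, in 1 fit of all 12 mice. Saa3 rose by 8.75 on the log2 scale (SE 0.76, 95% interval 7.08 to 10.4, edgeR adjusted p = 0.001499), a fold of 430, and ranked 1 by p and 6 by log2 fold change among all genes tested. Saa1 rose by 1.70 (SE 0.39, interval 0.86 to 2.55, edgeR adjusted p = 0.0461), a fold of 3.25. Saa2 rose by 1.94 (SE 0.45, interval 0.97 to 2.92, edgeR adjusted p = 0.0467), a fold of 3.85. Saa4 had a log2 fold change of 0.78 (SE 0.27, interval 0.18 to 1.37) and was not called (edgeR adjusted p = 0.0988). For each of the 4 members all CLP mice were above all sham mice, which held in that direction for 12.2% of genes.

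The calls of Saa1 and Saa2 lay near the threshold. Both were lost when any of 9 of the 12 mice was left out, namely any sham mouse, CLP replicate 1, 2 or 4, or CLP+DCA replicate 1 or 2, with log2 fold changes of 1.47 to 1.87 for Saa1 and 1.68 to 2.13 for Saa2 over all 12 omissions. Saa4 was called in the fit without CLP+DCA replicate 3, at a log2 fold change of 0.78 (SE 0.19, edgeR adjusted p = 0.0154), and in the fits of the 8 sham and CLP mice alone, with adjusted p = 0.0349 in edgeR and 0.00224 in DESeq2. Saa3 was called under every alternative tried in this comparison.

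CLP+DCA versus CLP asks what DCA changed in septic liver. No member was called in edgeR, 1 of 13190 genes was (0.00758%), and 1319 genes had an unadjusted p under 0.05. The log2 fold changes were -0.66 for Saa1 (SE 0.38, interval -1.49 to 0.17, edgeR adjusted p = 0.586), -0.75 for Saa2 (SE 0.43, interval -1.70 to 0.20, adjusted p = 0.594), -1.22 for Saa3 (SE 0.55, interval -2.43 to -0.0066, adjusted p = 0.497) and -0.03 for Saa4 (SE 0.27, interval -0.62 to 0.56, adjusted p = 0.981). The groups overlapped for every member, whereas they did not for 4.37% of genes, and DESeq2 on the 8 mice called none of the 4 members either, with 80 genes called in all.

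CLP+DCA replicate 3 decided these values. In the fit without it, with 3 CLP+DCA mice, Saa3 was lower in CLP+DCA than in CLP with a log2 fold change of -2.21 (SE 0.35, interval -2.97 to -1.45, edgeR adjusted p = 0.0158), and Saa2 changed by -1.33 (SE 0.34, interval -2.07 to -0.58, edgeR adjusted p = 0.0498). Saa1 changed by -1.11 (SE 0.31, interval -1.79 to -0.43) and was not called (edgeR adjusted p = 0.0582). Saa4 had the opposite sign at 0.19 (SE 0.20, interval -0.26 to 0.63, edgeR adjusted p = 0.566). In the same fit 4.64% of 13288 genes were called, and 2.63% of the 13288 were called lower in CLP+DCA, so that 2 of 4 members called stands against that larger background. CLP+DCA replicate 3 was 1 of the 12 mice left out in turn. It was singled out by its own Saa1, Saa2 and Saa3 values, and leaving out the highest mouse lowers the group mean. The p-values and calls of the members without it are therefore descriptions and no test of them.

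CLP+DCA versus sham uses the same sham mice as CLP versus sham and the same treated mice as the comparison above, so its values are given beside theirs and not as separate support. Saa3 was higher in CLP+DCA by 7.53 (SE 0.73, interval 5.94 to 9.12, edgeR adjusted p = 0.00428), a fold of 185, with the smallest p of all genes; 0.0379% of genes were called, which is 5 genes. The call was lost in edgeR on the 8 mice compared (adjusted p = 0.0812) and with the replicate number as a block (adjusted p = 0.0501). Without CLP+DCA replicate 3 the Saa3 value was 6.54 (SE 0.39, edgeR adjusted p = 2.3e-05), a fold of 92.8. Saa1, at 1.04 (SE 0.38, interval 0.21 to 1.87), and Saa2, at 1.20 (SE 0.44, interval 0.24 to 2.16), were not called (edgeR adjusted p = 0.317 for both), and the mice of the 2 groups did not overlap for either of them or for Saa3, which held with CLP+DCA higher for 4.78% of genes. Without CLP+DCA replicate 3 these values were 0.59 for Saa1 (interval -0.06 to 1.24) and 0.62 for Saa2 (interval -0.10 to 1.33), and both intervals span 0. Saa4 was at 0.75 (SE 0.27, interval 0.16 to 1.34, edgeR adjusted p = 0.314), with overlap through CLP+DCA replicate 3. Without that mouse Saa4 was at 0.96 (SE 0.20, interval 0.52 to 1.40, edgeR adjusted p = 0.148), above Saa1 and Saa2 in the same fit.

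**Figure D3:**
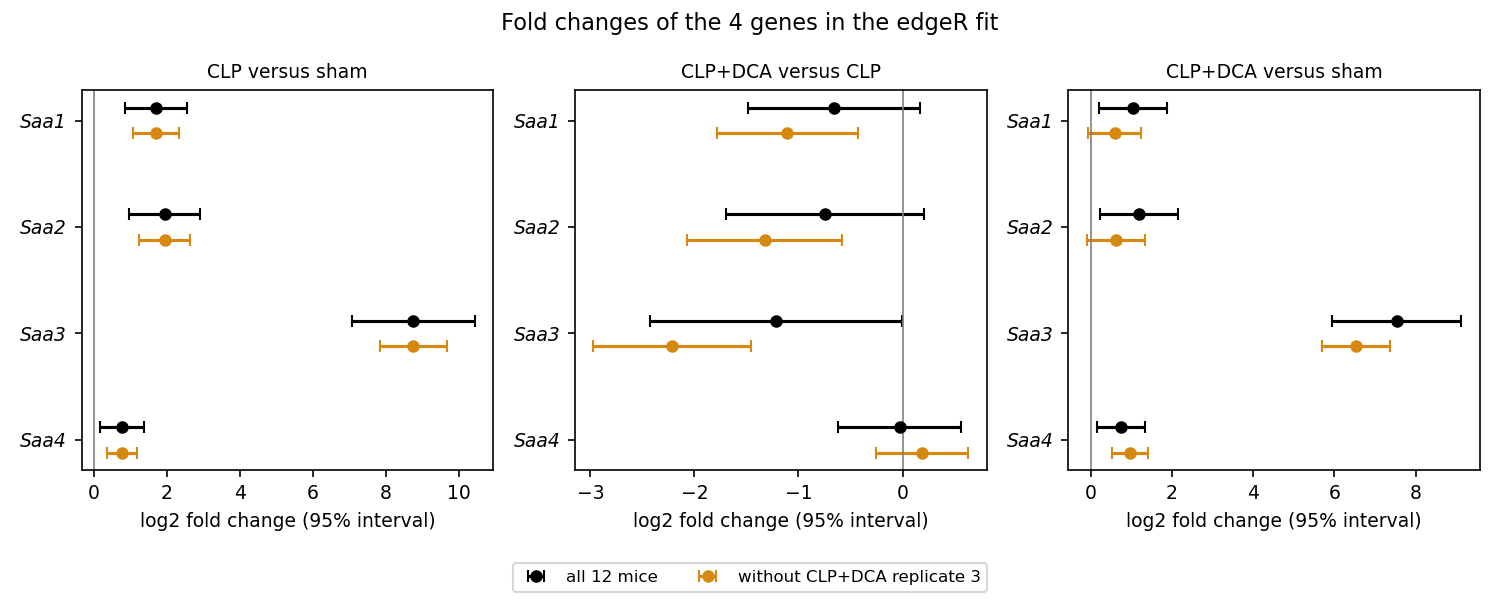
Log2 fold changes of the 4 genes with 95% intervals in 3 panels, 1 for each comparison, from the edgeR fit of all 12 mice (black) and from the fit without CLP+DCA replicate 3 (orange); the horizontal scales differ between panels. In CLP+DCA versus CLP the black Saa3 point is at -1.22 and the orange one at -2.21, and Saa4 is near 0 in both.

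Ratios between members within a mouse do not depend on library scaling and show whether members changed by unequal amounts. The log2 ratio of Saa3 to Saa1 counts was -8.35, -8.996, -9.08 and -8.88 in sham, -1.72, -1.92, -1.68 and -1.65 in CLP, and -2.11, -3.53, -1.85 and -3.03 in CLP+DCA. Within CLP the ratio was tight (-1.74 ± 0.12, SD, n = 4) although the highest and lowest CLP mouse differed 2.26-fold in Saa1 and 2.09-fold in Saa3, and in CLP+DCA it was spread (-2.63 ± 0.79). CLP exceeded sham by 7.08, with no overlap (exact permutation test, two-sided, p = 0.0286, which is the lowest possible with 4 mice a group). CLP+DCA differed from CLP by -0.88 (exact permutation p = 0.0571), with overlap through CLP+DCA replicate 3, and from sham by 6.20 (exact permutation p = 0.0286).

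Saa1 and Saa2 changed by nearly the same amount, with a small shift of the ratio. The log2 ratio of Saa1 to Saa2 was 0.06, 0.09, -0.02 and 0.03 in sham, -0.15, -0.27, -0.10 and -0.20 in CLP, and 0.02, -0.02, -0.26 and 0.06 in CLP+DCA. CLP was below sham in every mouse, with a difference of -0.22 (exact permutation p = 0.0286). CLP+DCA replicate 3 lay inside the CLP range and the other CLP+DCA mice above it, and the group differed from CLP by 0.13 (exact permutation p = 0.171), or by 0.20 without replicate 3, and from sham by -0.09 (exact permutation p = 0.314), or by -0.02 without it. This ratio depends on how reads were split between the near copies, and the part of that in the shift was not tested.

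The log2 ratio of Saa4 to Saa1 was -2.86, -2.98, -3.56 and -3.79 in sham, -3.50, -4.91, -3.47 and -4.43 in CLP, and -2.70, -3.19, -5.33 and -2.62 in CLP+DCA. All 3 groups overlapped, and the differences were -0.78 for CLP versus sham (exact permutation p = 0.171), 0.62 for CLP+DCA versus CLP (exact permutation p = 0.457) and -0.16 for CLP+DCA versus sham (exact permutation p = 0.914). Without CLP+DCA replicate 3 the last 2 differences were 1.24 and 0.46. Over the 9 ratio tests, none passed a Benjamini-Hochberg adjustment at 0.05; the lowest adjusted p of these exact permutation tests was 0.0857.

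**Figure D4:**
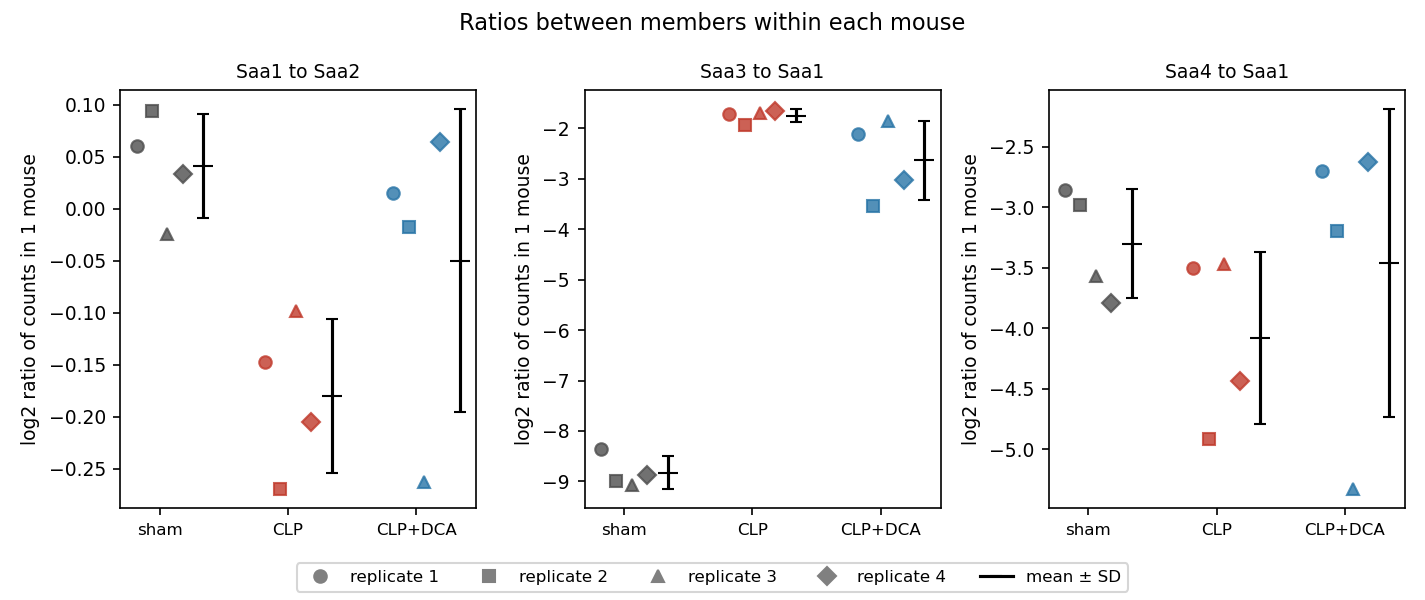
Log2 ratios of counts of Saa1 to Saa2, Saa3 to Saa1 and Saa4 to Saa1 in each mouse, with a symbol for each replicate number and the group mean ± SD (n = 4) to the right of the points; vertical scales differ. The Saa3 to Saa1 ratio lies from -9.08 to -8.35 in sham and from -1.92 to -1.65 in CLP, and in the Saa1 to Saa2 and Saa4 to Saa1 panels CLP+DCA replicate 3 is the lowest of its group.

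The genes flanking the family were listed beside it. Within 200 kb, 9 other genes were in the table and 7 passed the filter, and none of the 7 was called in any of the comparisons. Over all genes 2.78% were called in CLP versus sham, 0.00758% in CLP+DCA versus CLP and 0.0379% in CLP+DCA versus sham. At these shares no call is the likely outcome for any 7 genes, so the count says little on the locus. Saal1, the nearest tested neighbour, had a log2 fold change of -0.13 (SE 0.20) in CLP versus sham, Hps5 on the other side -0.06 (SE 0.12), and Ldha, a subunit of lactate dehydrogenase, 0.33 (SE 0.17). Gtf2h1 was at -0.23 (SE 0.09), Uevld at -0.22 (SE 0.11), Tsg101 at -0.08 (SE 0.08) and Sergef at 0.12 (SE 0.21). Tph1 and Ldhc, with at most 0.0336 CPM in any mouse, were not tested.

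**Figure D5:**
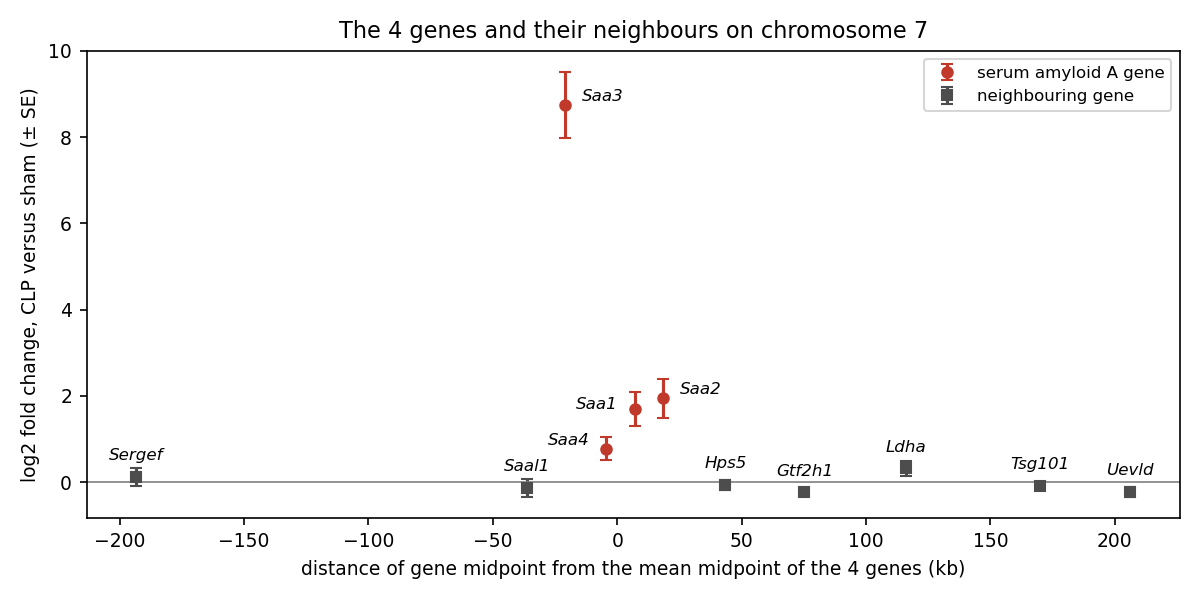
Log2 fold changes in CLP versus sham (± SE) of the 4 genes (red) and the 7 tested neighbours (gray) against the distance of each gene's midpoint, in kb, from the mean midpoint of the 4 genes. The red points lie between 0.78 and 8.75, and the gray points between -0.23 and 0.33.

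Of genes outside the family, those nearest in pattern were found by the root mean square difference, over the 12 mice, of log2 CPM taken relative to the sham mean of each gene, among 9362 genes compared. For Saa1 these were Hpx, the heme-binding acute phase protein hemopexin (0.17), Serpina3m, a serine protease inhibitor (0.19), and Icam1, an adhesion molecule for leukocytes (0.23). For Saa2 they were Cp, the copper carrier ceruloplasmin (0.24), Hpx (0.24) and Serpina3m (0.24), and Saa1 itself was at 0.16 from Saa2. For Saa3 the nearest were Reg3b (1.24) and Reg3g (1.52), secreted antimicrobial lectins, and A2m (2.10), a protease inhibitor, so that no gene was close. For Saa4 they were Epha2 (0.28), an ephrin receptor, Trim24 (0.30) and Tedc2 (0.30). These differences are descriptions over mice that share libraries, with no test.

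Among 15 listed inducers of serum amyloid A and their receptors, 11 were tested, and in CLP versus sham 1 rose and none fell. The median log2 fold change of the 11 was 0.39, against 0.02 over all genes tested. Over all genes 2.78% were called and 1.64% called higher, the shares to set beside each list and marker count below. A single call in so small a list is not read as a result about the list. Il1b, the cytokine IL-1β, rose by 1.36 (SE 0.31, edgeR adjusted p = 0.0463), from 1.23 ± 0.31 to 3.20 ± 0.89 CPM, and stood at 1.60 ± 0.70 CPM in CLP+DCA. Il6 did not pass the filter, at 0.0588 CPM in CLP on average and no read in sham. Il6ra and Il6st, the chains of the IL-6 receptor, had log2 fold changes of 0.45 (edgeR adjusted p = 0.126) and 0.39 (adjusted p = 0.192). Lifr, the leukemia inhibitory factor receptor, was at -1.69 (edgeR adjusted p = 0.0508).

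Of 15 listed transcription factors for the serum amyloid A genes and their inhibitors, 2 rose, none fell, and the median was 0.15. The list was written from general knowledge, and action on these promoters was not tested. Cebpd, the C/EBP family member induced in acute inflammation, rose by 2.17 (SE 0.40, edgeR adjusted p = 0.0283), and Nfkbiz, a nuclear regulator of NF-kB, rose by 1.501 (SE 0.34, edgeR adjusted p = 0.0450). Socs3, the feedback inhibitor of IL-6 signaling, was at 1.57 (edgeR adjusted p = 0.0522), Stat3 at 0.35 (0.228), Cebpb at 0.15 (0.730), Nfkb1 at 0.09 (0.511) and Rela at -0.18 (0.128). Several of these factors are also regulated as proteins, which these data do not show.

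Of 11 genes for serum amyloid A receptors, 10 were tested and 1 rose, with a median of 0.49. This was Fpr1, a formyl peptide receptor of phagocytes, at 1.03 (SE 0.23, edgeR adjusted p = 0.0444) and a low level of 1.48 ± 0.35 CPM in sham and 3.02 ± 0.62 in CLP. Fpr2, the best known receptor of serum amyloid A on leukocytes, was at 1.37 (edgeR adjusted p = 0.120), Tlr2 at 2.38 (0.0770), and Scarb1, the HDL receptor of hepatocytes, at 0.04 (0.845).

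Serum amyloid A travels in plasma on HDL. Of 17 genes for HDL partners and retinol carriers, none rose and 1 fell, where 2.78% of all genes were called in either direction. The median of the 17 was -0.47. The gene that fell was Apoc3, an apolipoprotein of HDL and triglyceride-rich particles, at -0.81 (SE 0.16, edgeR adjusted p = 0.0366). Lipc, hepatic lipase, was at -1.89 (edgeR adjusted p = 0.0634) and Apoa1, the main HDL apolipoprotein, at -0.21 (0.521), or 6762 ± 572 CPM in sham and 5843 ± 900 in CLP. Of 9 genes of amyloid deposition and serum amyloid A degradation, 2 rose and none fell, with a median of 0.32. Apcs, serum amyloid P component, which is found in all amyloid deposits and is an acute phase protein of the mouse, rose by 2.59 (SE 0.41, edgeR adjusted p = 0.0202), from 465 ± 61.7 to 2805 ± 972 CPM, and Mmp9, a protease that neutrophils also carry, rose by 2.38 (SE 0.54, edgeR adjusted p = 0.0461).

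The other acute phase genes give the setting for the family. Of 25 listed, 12 rose and none fell in CLP versus sham, where 1.64% of all genes were called higher. The median of the 25 was 1.60, and 24 had a log2 fold change above 0. Those that rose were Hp, Hpx, Orm1, Orm2, Lcn2, Itih3, Serpina3n, Serpina3m, Lbp, A2m, C3 and Lrg1, of which C3, complement component 3, changed by 0.98 and Lcn2, lipocalin 2, by 4.09 (edgeR adjusted p = 0.0463 and 0.0294). A2m, at 0.294 CPM in sham and 1226 ± 1155 in CLP, had the largest change of the list at 12.002 (SE 2.56, edgeR adjusted p = 0.0412). These list counts rest on few mice and on the fit. Over the 12 omissions of 1 mouse the number of the 25 called ran from 0, without any sham mouse or CLP replicate 2 or 4, to 22, without CLP+DCA replicate 3, and it was 6 with no filter and 0 with the replicate block. The ranges over the omissions were 0 to 7 for inducers and their receptors, 0 to 7 for transcription factors and their inhibitors, 0 to 3 for receptors, 0 to 10 for HDL partners and retinol carriers and 0 to 5 for amyloid and degradation. With edgeR on the 8 sham and CLP mice alone, where 18.3% of all genes were called, 22 of the 25 were called, all higher, and the other lists then had 6 higher and 3 lower (inducers and their receptors), 5 and 1 (transcription factors and their inhibitors), 3 and 0 (receptors), 1 and 6 (HDL partners and retinol carriers) and 2 and 0 (amyloid and degradation).

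In CLP+DCA versus CLP and in CLP+DCA versus sham, edgeR called none of the genes in these 6 lists. Their median log2 fold changes in CLP+DCA versus CLP were -0.40 for the other acute phase genes, 0.30 for HDL partners and retinol carriers, -0.04 for inducers and their receptors, -0.08 for transcription factors and their inhibitors, -0.16 for receptors and -0.11 for amyloid and degradation, against 0.01 over all genes. At an unadjusted p under 0.05 the counts were 2, 3, 2, 4, 1 and 1 genes, in the same order, against 1319 of all 13190 genes tested. DESeq2 on the 8 mice compared called 9 of the 25 other acute phase genes higher in CLP+DCA than in sham, where it called 0.932% of all genes. In the fit of CLP+DCA versus CLP without CLP+DCA replicate 3, where 4.64% of genes were called (2.63% lower), 6 of the 25 other acute phase genes were called lower and none higher. The summed level of the 25 was 121046, 151913, 303461 and 117283 CPM in CLP+DCA replicates 1 to 4. Leaving out replicate 3 thus lowers the group mean of such genes. All list calls without it are therefore descriptions and no test, as for the members. The lists of inducers with receptors, transcription factors and amyloid with degradation then had 1 higher and 2 lower, 1 higher and 3 lower, and 1 higher and 2 lower, HDL partners and retinol carriers had 2 higher and none lower, and receptors had none called.

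Markers of other cells that can make serum amyloid A, or that enter inflamed liver, were examined beside these values. Of 13 neutrophil markers, 11 were tested and 2, Retnlg and Mmp9, rose in CLP versus sham. Of the 11, 10 had a log2 fold change above 0, with a median of 2.56. An unadjusted edgeR p under 0.05 held for 10 of the 11, and for 3772 of all 13190 genes tested. The marker that went the other way was Ly6g, at -0.78 (edgeR adjusted p = 0.136), with 0.823 CPM in sham and 0.459 in CLP on average. The summed level of the 13 markers was 6.96 to 10.04 CPM in sham and 34.4 to 48.7 in CLP. In CLP+DCA it was 7.02, 15.3, 63.5 and 7.70 CPM in replicates 1 to 4, highest in replicate 3 as for Saa1, Saa2 and Saa3. S100a8 and S100a9, calcium-binding proteins abundant in neutrophils, had log2 fold changes of 2.84 and 2.56 (edgeR adjusted p = 0.0568 and 0.0643), and the granule protein genes Mpo and Camp did not pass the filter, at no more than 0.623 CPM in any mouse. The part of neutrophils in the results was not tested.

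Of 11 Kupffer cell and macrophage markers 1 rose, Itgam, an integrin chain that neutrophils and monocytes also carry, at 3.42 (SE 0.81, edgeR adjusted p = 0.0482), and the median was 0.29. Their summed level was 173 to 304 CPM in sham, 282 to 361 in CLP and 420, 420, 236 and 225 in CLP+DCA. Single markers went otherwise than the sum. Itgam was at 2.68, 2.96, 23.8 and 1.495 CPM in CLP+DCA and Marco, a scavenger receptor, at 43.6, 46.9, 86.9 and 6.87 CPM, both highest in replicate 3, against 8.83 to 15.1 and 31.1 to 87.7 CPM in CLP. The part of macrophages in the results was not tested. Of 6 adipocyte markers 2 were tested and none was called, and their sum was 2.68 to 11.7 CPM over all 12 mice, with Adipoq and Lep at or near 0. Stellate cell and bile duct markers summed to 63.9 to 103 CPM in sham and 122 to 324 in CLP. The highest was CLP replicate 3, and Des ran from 3.32 to 172 CPM in CLP. Lymphocyte markers summed to 1.96 to 4.21 CPM in sham and 0.539 to 1.60 in CLP. Sums for sinusoidal endothelium and for pancreas and gut epithelium overlapped between sham and CLP. None of these lists had a call, and their part in the results was not tested.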

How the data were processed

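Livers were processed by the authors into poly(A)-enriched libraries sequenced as 100-base paired ends; reads were aligned to mm10 with STAR 2.5 and counted with featureCounts of Subread 1.5.0-p1. The deposited values are unnormalized counts per gene. Annotation, strand and multi-mapping settings are not given in the sources used here. Of 25611 genes, 6769 had no read.

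Members and lists were chosen with earlier results of these data known. In R 4.3.3, counts were filtered with filterByExpr of edgeR 4.0.16 (minimum count 10; 13190 genes), TMM-normalized and fitted by a robust quasi-likelihood model of all 12 mice, with limma 3.58.1 loaded. Fold changes are contrasts of groups; SE is the log2 fold change over the square root of F. The fit was tested on simulated counts with known changes, whose spread was capped and set alike in all groups. That setting does not cover the unequal spread between groups seen here. log2 CPM used a prior count of 2, and ratios added 0.5 to each count. Like genes needed a mean of 5 CPM in 1 group. Named are the members, list genes that passed the FDR of 0.05 or had the 2 smallest p of a list, and regulators fixed by name. The 3 genes most like each member and tested neighbours are also named. List genes given only at or near 0 (Mpo, Camp, Adipoq, Lep, Ass1), S100a8, S100a9, Ly6g, Marco, Apob, Hnf4a, Asgr1, Tph1 and Ldhc were added after their values were seen. Alternatives were DESeq2 1.42.0 and edgeR on the 8 mice compared, RLE, library size alone, scaling without acute phase genes, no filter, a replicate block, 5 added to ratio counts and leaving out each mouse.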

Additional observations from a re-analysis of the deposited data

How the results depend on the processing

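Fold changes of members kept their direction except Saa4 in CLP+DCA versus CLP, which was -0.03 and turned to 0.10 with library size alone, 0.01 without CLP replicate 4 and 0.19 without CLP+DCA replicate 3; its interval spans 0 in each. Library size alone moved the median of all genes to -0.15 in CLP versus sham and 0.12 in CLP+DCA versus CLP, and turned 216 higher and 151 lower genes into 100 and 109. With no filter, more genes were tested, and Saa1 at 1.68 and Saa2 at 1.93 were no longer called in CLP versus sham (edgeR adjusted p = 0.0613 and 0.0627). Saa4 at 0.78 in edgeR (adjusted p = 0.0349) and 0.77 in DESeq2 (adjusted p = 0.00224) was called on the 8 mice alone, whereas Saa3 in CLP+DCA versus sham, at 7.53, was not called by edgeR on 8 mice (adjusted p = 0.0812).

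Without each mouse in turn, CLP versus sham gave 1.47 to 1.87 for Saa1, 1.68 to 2.13 for Saa2 and 0.64 to 0.91 for Saa4; CLP+DCA versus CLP gave -1.33 to -0.48 for Saa2, -2.21 to -0.93 for Saa3 and -0.18 to 0.19 for Saa4. The Saa4 to Saa1 ratio in CLP+DCA versus sham, -0.16, ranged from -0.44 to 0.46 and turned positive without CLP+DCA replicate 3. Genes called in CLP versus sham numbered 367, and 10 to 3157 over these omissions, 3157 without CLP+DCA replicate 3 and 990 without CLP replicate 3, against 2387 by edgeR and 3428 by DESeq2 on 8 mice, 209 with library size alone, 122 with no filter and 46 with the block. In CLP+DCA versus CLP, 1 gene was called, 0 to 616 over the omissions, 0 by edgeR on 8 mice, 80 by DESeq2 and 4 with the block; in CLP+DCA versus sham 5 were called, 1 to 11 over the omissions, 0 by edgeR on 8 mice, 169 by DESeq2 and 0 with the block. The causes of these moves were not tested.

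Replicate numbers are shared between groups, and whether they mark pairs or a batch is not given in the sources used here. Same-number correlations of deviations ran from -0.05 to 0.09 in CLP versus sham, -0.46 to 0.55 in CLP+DCA versus CLP and -0.16 to 0.09 in CLP+DCA versus sham. The best match was the own number for CLP replicates 1 and 3 against sham and CLP+DCA replicate 1 against CLP, and not for the others. With 4 mice a group, these correlations cannot exclude a shared batch. With the replicate number as a block, Saa1 was at 1.66 (edgeR adjusted p = 0.102) and Saa2 at 1.91 (adjusted p = 0.104) in CLP versus sham and Saa3 at 7.25 (adjusted p = 0.0501) in CLP+DCA versus sham. With 4 mice a group, ratio tests cannot go below p = 0.0286 (exact permutation), or 0.0571 with 3 against 4, so that they say little on stability.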
